A study of Mus musculus with 147 samples.

Results

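Sohlh1, Sohlh2, Dmrt1, Dmrtb1, Neurog3, Sox3 and Esx1 encode transcription factors known from the differentiation of spermatogonia. These 7 genes, chosen by name, are described here among the 31053 genes of a table of UMI counts (unique molecular identifiers, each marking 1 captured RNA molecule) from single cells of the mouse male germline. Each gene had 1 row in the table, so all 7 members were found.

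Spermatogonia are the mitotic germ cells of the testis. They arise from prospermatogonia (ProSPG), which themselves descend from primordial germ cells (PGCs) that stop dividing in the fetal gonad. SOHLH1 and SOHLH2 are basic helix-loop-helix factors that can pair with each other, are needed for spermatogonia to differentiate, and act in oocyte growth in the ovary. DMRT1 is a DM-domain factor of germ cells and Sertoli cells that keeps spermatogonia out of meiosis, and DMRTB1 (DMRT6) is a relative that acts as spermatogonia pass into meiosis. NEUROG3 is a helix-loop-helix factor of undifferentiated spermatogonia, SOX3 is an X-linked HMG-box factor needed for its expression, and ESX1 is an X-linked homeobox factor of placenta and testis.

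The study profiled wild-type male germ cells with STRT-seq, a single-cell method that sequences the 3′ ends of RNA. Of 9528 wild-type cells collected between E11.5 (E, embryonic day) and adulthood, 9287 passed the filter on genes and UMIs, with a median of 276734 UMIs and 9702 genes per cell. They came from 23 time-points, each with replicate 1 and replicate 2, and no pair of cells shared both library and barcode. The cells of 1 time-point and 1 replicate are called a pool.

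Embryos came from C57BL/6 females mated with males homozygous for BVSC, a pair of transgenes in which Blimp1 regulatory sequence drives mVenus and Stella regulatory sequence drives ECFP. All embryonic cells, the somatic ones included, therefore descend from a cross that carries both reporters. The paper names offspring of this cross as the animals profiled, and it gives no other cross for the postnatal and adult wild-type animals. At E11.5 to E18.5, dissected gonads were sorted into a reporter-positive gate and a reporter-negative gate named Negative; from E14.5 the Blimp1 signal fades and ECFP alone was used. Cells after birth (postnatal day, PND) were picked by eye for germ cell shape, and cells of some late time-points were sorted by DNA content. Prenatal pools held several embryos and each postnatal pool 1 animal, so the p-values below measure the spread between these pools. No other allele or treatment is carried by the cells used.

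Germ cells were recognised by clustering and by markers such as Ddx4 and Dazl, and 6937 cells (74.7%) fell in clusters named germ. A further 555 cells were Sertoli-like, 623 interstitial-like, 81 Leydig-like, and 1091 cells (11.7%) stayed unnamed because their leading genes went against a name. Pools of at least 10 germ cells numbered 42, with 6927 cells, 18 to 569 cells and 6792440 to 197193011 UMIs per pool. Across genes, replicate pools of a time-point correlated at 0.934 to 0.992.

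Some libraries stood apart. The replicate 1 cells of the adult, of E17.5, of PND8 and of PND12, and the 2N cells of PND14 replicate 1, fell almost wholly into unnamed clusters that were led by Leydig-associated, neutrophil, yolk sac or Sertoli genes but also carried germ cell markers. The replicate 1 pools of the adult, E17.5, PND8 and PND12 are left out of the main values. PND14 replicate 1 is kept with its 188 named germ cells, of which 185 came from the 4N gate. Unnamed clusters also held 52 cells of PND12 replicate 2, 48 of E16.5 replicate 2 and 35 of E11.5 replicate 1. They held 25 cells of PND10 replicate 2 and 10 of PND3 replicate 2 as well. Values with the unnamed clusters added back are given for the pools they move most. In the Adult replicate 1 pool with those cells added (324 cells), Sohlh1 stood at 82.3 CPM (counts per 1000000 UMIs) and Dmrtb1 at 167 CPM, against 3.34 CPM and 597 CPM in replicate 2. In the same pool Sohlh2 stood at 81.99 CPM, Dmrt1 at 114.2 CPM and Esx1 at 118.02 CPM, against 4.08, 2.81 and 9.44 CPM in replicate 2. Sox3 was at 9.46 CPM and Neurog3 at 0.419 CPM there, against 0.469 and 0.0107 CPM.

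The sequences upstream of Sohlh1 and Sohlh2 are shown because their 2 genes moved in opposite directions in the fetal gonad. Sohlh1 lies on the minus strand at chr2:25842995-25847248 and Sohlh2 on the plus strand at chr3:55182028-55209957 (mm10). Printed are the 250 bases before the RefSeq start in build GRCm38.p6, chr2:25847249-25847498 and chr3:55181794-55182043, 5′ to 3′ on each gene's strand. Capitals mark the E-box letters CANNTG, the core that helix-loop-helix factors bind, which read the same on both strands.
Sohlh1: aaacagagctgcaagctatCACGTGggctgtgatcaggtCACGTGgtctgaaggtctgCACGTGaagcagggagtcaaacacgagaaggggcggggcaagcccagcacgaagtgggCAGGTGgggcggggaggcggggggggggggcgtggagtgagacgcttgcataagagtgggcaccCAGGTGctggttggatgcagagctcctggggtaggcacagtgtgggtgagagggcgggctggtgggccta
Sohlh2: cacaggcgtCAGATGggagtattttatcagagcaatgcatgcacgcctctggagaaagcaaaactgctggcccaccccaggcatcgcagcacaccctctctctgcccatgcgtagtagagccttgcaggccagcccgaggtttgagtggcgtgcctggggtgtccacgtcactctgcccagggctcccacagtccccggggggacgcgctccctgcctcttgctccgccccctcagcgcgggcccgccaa

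The Sohlh1 stretch held 5 E-boxes, and 3 of them had the letters CACGTG. The Sohlh2 stretch held 1 E-box and no CACGTG. Of 32851 RefSeq stretches of this length, 66.2% held at least 1 CANNTG and 6.02% at least 1 CACGTG; 1.15% held as many CANNTG as Sohlh1 and 0.0609% as many CACGTG. These matches describe letters and were not tested as binding sites. The stretches of Neurog3 and Esx1 held 1 CANNTG each, that of Esx1 being a CACGTG. Those of Dmrtb1, which has more than 1 RefSeq start, held 3 and 2 CANNTG and no CACGTG.

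The other members lie at chr19:25505618-25604329 on the plus strand (Dmrt1), chr4:107676290-107684230 on the minus strand (Dmrtb1), chr10:62133090-62134763 on the plus strand (Neurog3), chrX:60891366-60893430 on the minus strand (Sox3) and chrX:137115397-137122083 on the minus strand (Esx1). In the GENCODE annotation 6 of the 7 overlapped no other gene. Neurog3 overlapped Fam241b on the opposite strand, and whether the counting used strand is not given in the sources used here.

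Pools were grouped by age into 7 windows of 5 to 7 pools, and each window was compared with the one before it with the quasi-likelihood test of edgeR, run on 24926 genes, with Benjamini-Hochberg adjustment at 0.05. A gene below that threshold is said to have risen or fallen. Pools of different ages in a window count as its replicates, so the spread in these tests includes any change with age inside the window. Values are levels in CPM of germ cells, and fold changes are log2 differences with their standard error (SE). A pooled level alone does not tell a change in how many cells express a gene from a change in the RNA per cell, and shares of cells with a UMI are given where they bear on this.

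**Figure D1:**
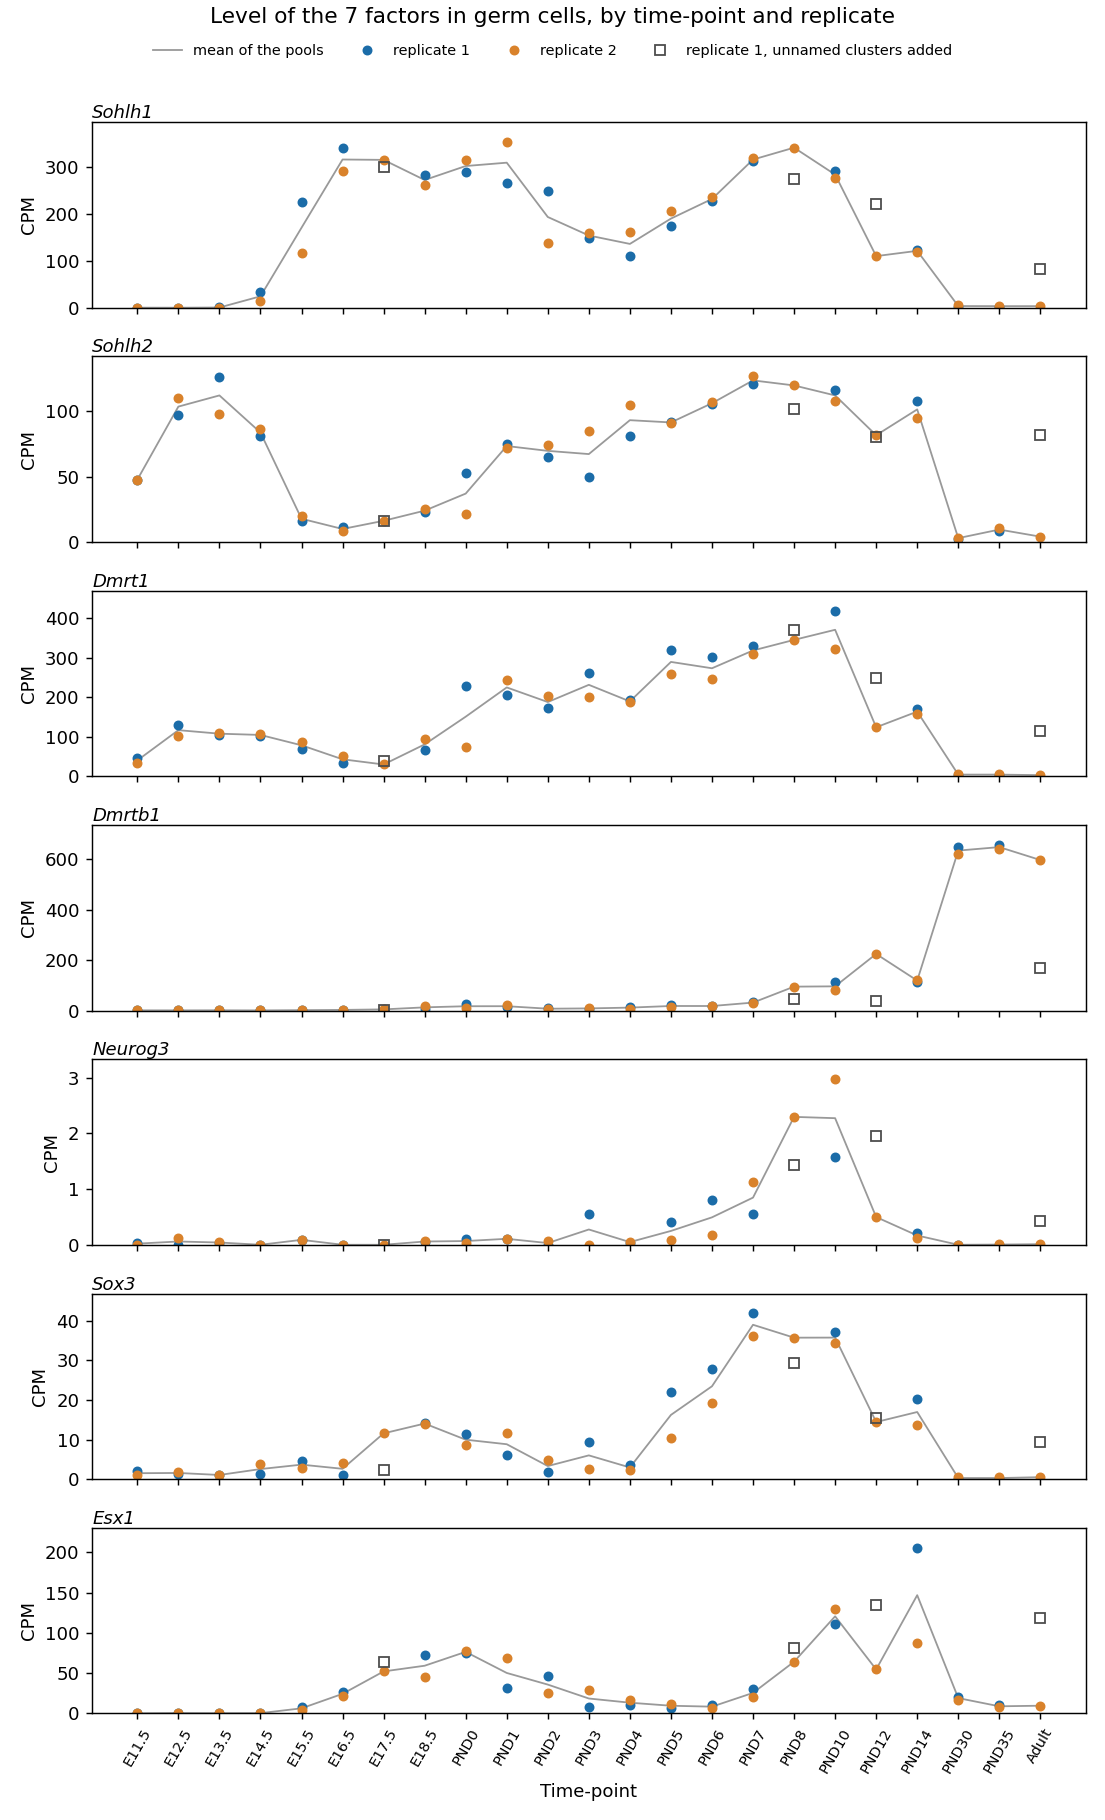
Level in germ cells (CPM, linear axis from 0) of each of the 7 genes at 23 time-points. Circles are single pools, blue for replicate 1 and orange for replicate 2, the grey line is their mean, and open squares are the 4 replicate 1 pools that reach 10 cells only with unnamed clusters added; Sohlh1 is near 0 until E13.5 and at 226 and 115.7 CPM at E15.5, while Sohlh2 drops to 11.3 and 8.62 CPM at E16.5.

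Sohlh1 was close to absent from PGCs and switched on in the male gonad between E13.5 and E15.5. It was at 0.0808 and 0.162 CPM at E11.5 (replicates 1 and 2), without a UMI in either E12.5 pool, and at 0.674 and 0.227 CPM at E13.5. It then stood at 34.2 and 14.4 CPM at E14.5, 226 and 115.7 CPM at E15.5, and 341 and 292 CPM at E16.5. All 6 pools of E14.5 to E16.5 lay above all 6 pools of E11.5 to E13.5.

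Sohlh2 ran the other way. It was already at 47.6 and 47.7 CPM at E11.5 and at 126.1 and 98.2 CPM at E13.5. It was still at 80.9 and 86.6 CPM at E14.5, and then at 15.9 and 19.6 CPM at E15.5 and 11.3 and 8.62 CPM at E16.5. The E15.5 and E16.5 pools lay below every earlier pool, and the E14.5 pools lay within the earlier range.

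Between E11.5 to E13.5 and E14.5 to E16.5, Sohlh1 rose by 9.28 on the log2 scale (SE 0.64, adjusted p = 1.08e-13) and Sohlh2 fell by 1.39 (SE 0.47, adjusted p = 0.0137). Esx1 rose too, by 5.50 (SE 0.82, adjusted p = 1.56e-06), from a highest value of 0.531 CPM in the earlier window to 26.7 and 21.6 CPM at E16.5. Its E14.5 pools (0.306 and 0.0956 CPM) overlapped the earlier window. Thus 3 of the 7 members were called, where 51.7% of all genes tested were, 36.1% as higher and 15.6% as lower. The median gene shifted by 0.62, so the fall of Sohlh2 was larger relative to it. With replicate 1 or replicate 2 alone left out, the Sohlh2 fall was of like size but lost its call (adjusted p = 0.140 and 0.142).

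Dmrt1 and the 3 remaining members did not pass the test at this step. Dmrt1 ranged from 34.2 to 130.7 CPM (median 104.2) at E11.5 to E13.5 and from 34.8 to 108.1 CPM (median 78.5) at E14.5 to E16.5, with lower pools at E16.5 (34.8 and 51.1 CPM) than at E14.5 (101.2 and 108.1 CPM). Sox3 lay between 0.929 and 4.53 CPM and Dmrtb1 between 0.159 and 2.64 CPM in these 12 pools. Neurog3 was at 0 to 0.117 CPM.

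The exchange of Sohlh2 for Sohlh1 was visible in single cells. To compare cells at 1 depth, each cell was thinned to 50000 UMIs, and 529 shallower cells of the whole set were left out. At E13.5, 168 of 176 germ cells had a Sohlh2 UMI without Sohlh1, and 1 cell had both. At E14.5, 18 of 182 cells had Sohlh1 alone, 31 had both, 17 had neither and the rest had Sohlh2 alone. At E15.5, 16 of 183 cells had Sohlh2 alone, 37 had both, 8 had neither and the rest had Sohlh1 alone.

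The share of E14.5 cells with a Sohlh1 UMI was 35.2% in replicate 1 and 18.7% in replicate 2. Some UMIs can appear in cells that do not express a gene, and their source was not tested. Interstitial-like cells, which should lack Sohlh1, had a Sohlh1 UMI in 0.926% of thinned cells at E11.5 to E13.5 and in 14.9% at E14.5 to E16.5, against 0.437% and 71.2% of germ cells. Median depths before thinning were 131610 and 178080 UMIs in interstitial-like cells and 312864.5 and 285667 UMIs in germ cells. At E11.5 to E13.5 the germ cell share was thus no higher than that of interstitial-like cells. Sertoli-like cells had a Sohlh1 UMI in 12.3% of thinned cells at E11.5 to E13.5 and in 17.9% at E14.5 to E16.5. In E14.5 replicate 2 itself, Sohlh1 was at 14.1 CPM in the reporter-positive gate and 3.39 CPM in the Negative gate. Without thinning, 1.90% and 83.2% of germ cells had a Sohlh1 UMI.

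**Figure D2:**
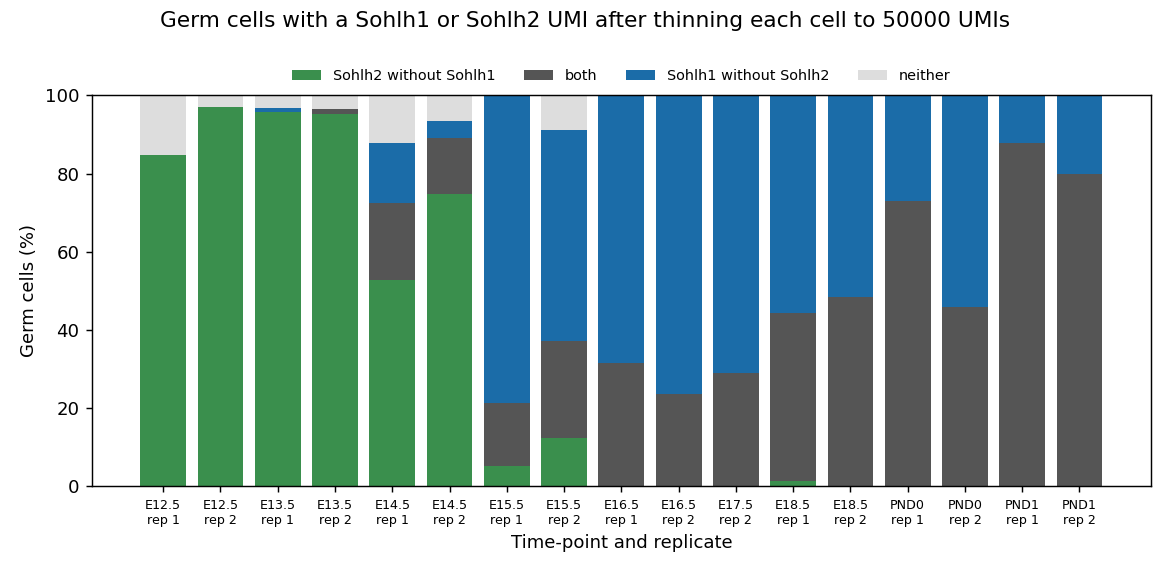
Percentage of germ cells (after thinning to 50000 UMIs) with a UMI of Sohlh2 without Sohlh1 (green), of both (dark grey), of Sohlh1 without Sohlh2 (blue) or of neither (light grey), for each pool from E12.5 to PND1. Cells with Sohlh2 without Sohlh1 go from 168 of 176 at E13.5 to 16 of 183 at E15.5, and cells with both are most of each pool at PND1.

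Lists of genes tied to these factors were read at the same step, against 51.7% of all genes called, 36.1% as higher and 15.6% as lower. Of 6 oocyte genes that act downstream of SOHLH factors in the ovary, 5 rose and none fell (median log2 change 2.697, all genes 0.62). Figla, an oocyte helix-loop-helix factor, rose by 4.33 (adjusted p = 4.73e-08) from at most 1.38 CPM to 2.64 to 39.8 CPM. Zp2 and Zp3, which encode egg coat proteins, rose by 4.67 and 2.68 (adjusted p = 0.00489 and 0.00230), and the homeobox gene Lhx8 by 2.22 (adjusted p = 0.0122).

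Id proteins hold back helix-loop-helix factors by binding their partners. Of 7 partners and inhibitors, 3 fell and none rose: Id3 by 3.02 (adjusted p = 2.65e-05), from a median of 287 CPM to 20.4 CPM, Id2 by 2.49 (adjusted p = 0.000680) and Id1 by 1.14 (adjusted p = 0.0189). The partners Tcf3, Tcf4 and Tcf12 did not pass the test. Of 12 SOHLH targets and genes of differentiating spermatogonia, 5 rose and 1 fell, near the shares of all genes, with a median of 0.40 against 0.62 for all genes. Tex101, a germ cell surface protein, rose by 4.23, Stra8, the retinoic acid-induced gene of meiotic entry, by 3.07 and the DNA methyltransferase gene Dnmt3a by 2.23, whereas the receptor gene Kit fell by 2.14 (adjusted p = 5.32e-06).

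Genes of meiotic entry rose in 8 of 11 and fell in none (median 1.33), led by Sycp2 (2.88), Prdm9 (2.46), Sycp3 (2.08) and Sycp1 (2.07); Sycp3 went from 2.42 to 6.74 CPM to 10.2 to 37.4 CPM. Retinoic acid receptors rose in 2 of 6 (Rxrg and Rxra). Of 16 genes of undifferentiated spermatogonia 5 rose and 1 fell, no larger a share than among all genes. Of 11 relatives of the members 6 rose and 1 fell, but Sox1, Dmrt2 and Neurog2 had no UMI in the earlier window and reached no more than 1.75, 1.39 and 0.881 CPM, and Dmrtc1a reached 5.24 CPM.

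From E17.5 to PND1, Sohlh1 stayed high at 262 to 353 CPM (median 289) in 7 pools, and Sohlh2 stayed low until birth. Sohlh2 was at 16.2 CPM at E17.5, 22.6 and 25.3 CPM at E18.5, 52.7 and 21.4 CPM at PND0, and 75.1 and 71.7 CPM at PND1. Neither gene passed the test against E14.5 to E16.5 (log2 change 0.54, SE 0.40, and -0.39, SE 0.44). With each cell scaled to the same total and limma, the Sohlh1 difference was called (1.54, adjusted p = 0.00215).

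Dmrtb1, Sox3 and Esx1 rose at this step, 3 of the 7 members, where 29.5% of all genes were called, 12.2% as higher and 17.2% as lower (higher genes made 41.5% of calls, and 58.7% with median-ratio size factors). Dmrtb1 lay at 4.47 to 25.3 CPM (median 12.8) against at most 2.64 CPM before, a rise of 3.04 (SE 0.44, adjusted p = 2.67e-06) with no overlap. Sox3 lay at 5.97 to 14.1 CPM (median 11.6) against at most 4.53 CPM, a rise of 1.51 (SE 0.45, adjusted p = 0.0105). Esx1 lay at 31.3 to 77.8 CPM (median 69.1), again above every earlier pool, a rise of 2.35 (SE 0.64, adjusted p = 0.00546).

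The Sox3 rise was not called once the E17.5 replicate 1 cells of an unnamed cluster, with 2.41 CPM, were added (1.35, adjusted p = 0.0919), nor without replicate 1 (1.23, adjusted p = 0.0635) or replicate 2 (2.01, adjusted p = 0.221). Without replicate 2, the Esx1 rise lost its call too (2.28, adjusted p = 0.289). At PND0 the replicates stood apart, with Dmrt1 at 228 CPM in replicate 1 and 73.5 CPM in replicate 2.

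Over this step the oocyte genes rose in 1 of 6 (Figla, by 1.299) and fell in none, and Zp3 reached 10.7 to 48.8 CPM. The helix-loop-helix partner Tcf3 fell by 1.47 and Id3 by a further 2.81, with Tcf4 as the third of 7 to fall. The targets rose in 3 of 12, with Ccnd2 (cyclin D2) up by 2.07, Rhox13 by 1.59 and Crabp1 by 1.16, and fell in 1 (Rarg, by 1.44). Of the meiotic entry genes 2 of 11 fell, of the retinoic acid receptors 1 rose and 3 fell, and of the genes of undifferentiated spermatogonia 2 of 16 rose and 5 fell, with Nanos2 down by 5.64 and Gfra1 up by 4.73.

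**Figure D3:**
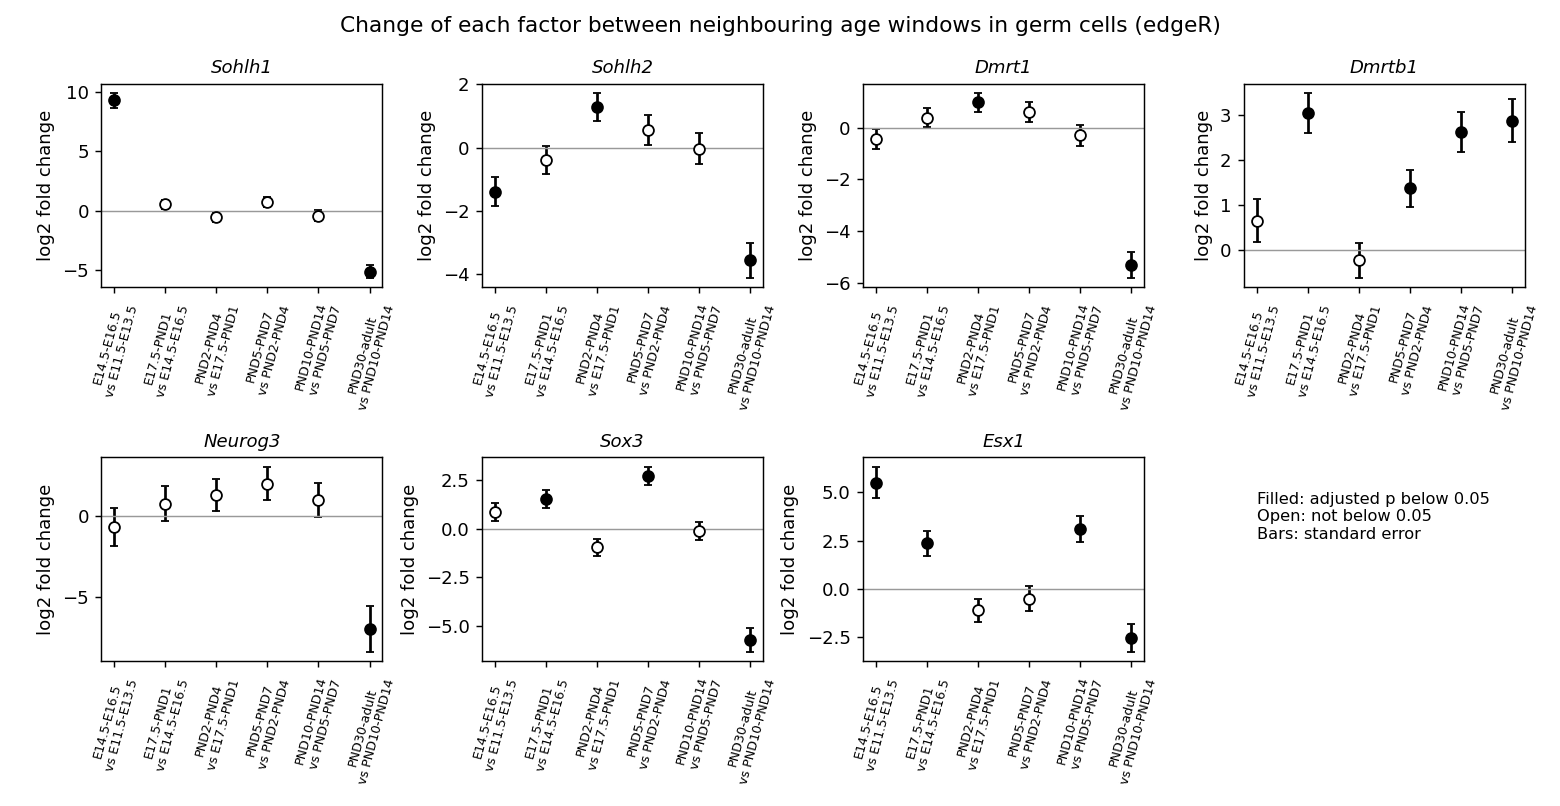
Log2 fold change of each gene between neighbouring age windows in germ cells (edgeR), with bars of 1 standard error; axes differ between panels. Filled points have an adjusted p below 0.05: Sohlh1 has its rise of 9.28 at the first step and its change of -5.11 at the last, and Dmrtb1 is called as higher at 4 of the 6 steps.

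At PND2 to PND4, Sohlh2 and Dmrt1 were higher than in the window before, in which both were already up by PND1 (means of 73.4 and 225 CPM, against 23.97 and 80.8 CPM at E18.5). Sohlh2 was at 65.1 and 74.4 CPM at PND2, 49.96 and 84.6 CPM at PND3, and 81.2 and 105.2 CPM at PND4. Dmrt1 was at 174 and 202 CPM, 262 and 201 CPM, and 192 and 187 CPM at the same time-points. Both ranges overlapped those of E17.5 to PND1, through the PND1 pools and PND0 replicate 1.

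Sohlh2 rose by 1.28 (SE 0.45, adjusted p = 0.0218) and Dmrt1 by 0.98 (SE 0.37, adjusted p = 0.0319), 2 of the 7 members, where 40.2% of all genes were called, 19.2% as higher and 21% as lower (higher genes made 47.7% of calls, and 30.7% with median-ratio size factors). The median gene shifted by -0.27. The Dmrt1 rise lost its call under 6 of 11 alternatives, with DESeq2 among them (0.71, adjusted p = 0.0921), and the Sohlh2 rise without replicate 2 (0.57, adjusted p = 0.621). Sohlh1 lay at 110.004 to 248 CPM (median 154) and Esx1 at 8.26 to 45.9 CPM (median 21.04), with log2 changes of -0.52 (SE 0.40) and -1.11 (SE 0.61) that were not called. Sox3 lay at 1.77 to 9.32 CPM (median 3.16), a difference of -0.97 (SE 0.44, adjusted p = 0.0766) that was called by DESeq2 (-1.30, adjusted p = 0.00728), with median-ratio size factors (-1.31, adjusted p = 0.0190), without replicate 1 (-1.47, adjusted p = 0.0293) and by limma (-1.23, adjusted p = 0.00110).

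Genes of undifferentiated spermatogonia rose in 11 of 16 and fell in 1 (median 1.88, all genes -0.27). Lhx1 rose by 3.19, Nanos2 by 3.08 and the GDNF receptor gene Ret by 2.32, and Shisa6 fell by 2.37. Oocyte genes fell in 3 of 6 and rose in none, with Zp2 at a median of 0.368 CPM against 16.99 CPM before (log2 change -4.44), and with Zp1 (-4.56) and Nobox (-2.77). Among the targets 4 of 12 rose (Stra8 by 2.57, Uhrf1 by 2.55, Ccnd2 by 1.54 and Dnmt3b by 1.15) and 1 fell. Id4 and Id3 rose by 1.83 and 1.69 and Tcf3 by 0.62, meiotic entry genes rose in 4 and fell in 3 of 11, and no retinoic acid receptor was called.

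From PND5 to PND7, Sox3 and Dmrtb1 rose. Sox3 was at 22.01 and 10.4 CPM at PND5, 27.8 and 19.2 CPM at PND6, and 41.9 and 36.2 CPM at PND7, and every pool lay above the highest of PND2 to PND4 (9.32 CPM). Its rise was 2.69 (SE 0.48, adjusted p = 0.00259). Dmrtb1 lay at 14.9 to 34.7 CPM (median 20.3) against 4.07 to 15.1 CPM, a rise of 1.37 (SE 0.41, adjusted p = 0.0486), with 1 pool of each window overlapping.

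These were 2 of the 7 members, where 3.90% of all genes were called, 0.879% as higher and 3.02% as lower. The Dmrtb1 value was close to the threshold and lost its call under 7 of 11 alternatives (adjusted p = 0.0579 to 0.779). The Sox3 rise lost its call without replicate 1 (2.90, adjusted p = 0.05001) and without replicate 2 (2.56, adjusted p = 0.677).

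Sohlh1 was at 175 and 206 CPM at PND5, 229 and 235 CPM at PND6 and 313 and 319 CPM at PND7. Sohlh2 lay at 91.2 to 126.75 CPM (median 106.2) and Dmrt1 at 246 to 329 CPM (median 305). The 3 log2 changes from PND2 to PND4 were 0.71 (SE 0.42), 0.56 (SE 0.46) and 0.60 (SE 0.38), and none was called. Among the lists, Rarg, the retinoic acid receptor of spermatogonia, rose by 2.11 (adjusted p = 0.00427) and Kit by 1.13 (adjusted p = 0.0471), making 2 of 12 targets and 1 of 6 receptors. No gene of undifferentiated spermatogonia, of meiotic entry, of the oocyte list or of the Id list was called, and of the relatives Sox2, Dmrtc2 and Dmrt3 fell.

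PND8 was kept apart from the windows because most replicate 1 cells were unnamed. The replicate 2 pool held Sohlh1 at 342 CPM, Sohlh2 at 119.8 CPM, Dmrt1 at 346 CPM, Dmrtb1 at 94.6 CPM, Sox3 at 35.8 CPM and Esx1 at 64.1 CPM. With the unnamed cells added (169 cells), replicate 1 had Dmrtb1 at 45.8 CPM and Esx1 at 81.2 CPM.

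Neurog3 was the rarest of the 7 factors, and in named germ cells its UMIs gathered around PND7 to PND10. Of 6937 germ cells 271 had a Neurog3 UMI, with 616 UMIs in all and up to 25 in a cell. In 33 of these cells there were at least 5 UMIs. PND7 to PND10 held 176 of the 271 cells: 49 of 306 germ cells at PND7, 48 of 186 at PND8 and 79 of 319 at PND10.

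The pooled level was 0.560 and 1.13 CPM at PND7, 2.29 CPM at PND8 replicate 2, 1.57 and 2.97 CPM at PND10, and 0.207 and 0.126 CPM at PND14. With the unnamed clusters added, PND14 replicate 1 had 0.662 CPM and PND12 replicate 1 had 1.95 CPM, so the decline after PND10 depends on which cells are counted. Among the named somatic cells 5 of 1259 had a UMI. Neurog3 passed no test between neighbouring windows before PND30, with log2 changes of 2.00 (SE 1.05) into PND5 to PND7 and 0.99 (SE 1.04) into PND10 to PND14.

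In the 5 pools of PND7 to PND10, germ cells with a Neurog3 UMI were set beside those without. Sohlh1 was higher in cells with Neurog3 in 5 of 5 pools (ratio 1.08 to 1.33, median 1.11), and Sohlh2 and Sox3 in 4 of 5 (median ratios 1.27 and 1.29). Esx1 was lower in 4 of 5 pools (median ratio 0.637), and so was Dmrtb1 (median ratio 0.668). In PND10 replicate 2, for example, Esx1 was at 82.2 CPM in 48 cells with Neurog3 and 167 CPM in 99 cells without, while Dmrt1 was at 325 and 321 CPM.

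PND7 replicate 2 was the exception for Esx1 and Dmrtb1, and PND7 replicate 1 for Sohlh2 and Sox3. With 5 pools an exact two-sided test cannot go below p = 0.0625. Cells with a Neurog3 UMI were deeper in each pool (median 328830 to 479441 UMIs, against 243496.5 to 302826.5), and the part of depth in these ratios was not tested.

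From PND10 to PND14, Dmrtb1 and Esx1 rose while the other members were not called. Dmrtb1 was at 111.6 and 79.98 CPM at PND10, 224 CPM at PND12 replicate 2, and 114.5 and 122.9 CPM at PND14, and every value lay above the highest of PND5 to PND7 (34.7 CPM). With the unnamed clusters added, Dmrtb1 ran from 39.5 to 182 CPM over the pools of PND10 to PND14. Esx1 was at 111.6 and 129.5 CPM, 54.6 CPM, and 206 and 87.8 CPM in the same pools, again above the highest earlier value of 30.4 CPM.

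Dmrtb1 rose by 2.61 (SE 0.43, adjusted p = 2.77e-05) and Esx1 by 3.09 (SE 0.69, adjusted p = 0.000994), 2 of the 7 members, where 23.1% of all genes were called, 16.6% as higher and 6.48% as lower. Without replicate 2 neither was called (2.28, adjusted p = 0.128, and 3.43, adjusted p = 0.281). Sohlh1 was at 292 and 277 CPM at PND10 but at 110.1 CPM at PND12 replicate 2 and 123.5 and 119.2 CPM at PND14. Dmrt1 was at 419.9 and 323 CPM, 124.1 CPM, and 170.1 and 158 CPM.

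Named PND14 germ cells of replicate 1 included 185 cells of the 4N gate, and those of replicate 2 included 92 cells of the 2N gate. Esx1 was at 206 CPM in the former and 45.7 CPM in the latter, whereas Sohlh1 was at 123.4 and 119.1 CPM and Dmrtb1 at 114.6 and 111.7 CPM. Gate, replicate and the loss of unnamed 2N cells go together in these values and cannot be told apart. With the unnamed 2N cells added, PND14 replicate 1 had Sohlh1 at 188 CPM, Dmrt1 at 255 CPM, Esx1 at 165 CPM and Neurog3 at 0.662 CPM, and PND12 replicate 1 had Sohlh1 at 221 CPM and Dmrtb1 at 39.5 CPM.

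Meiotic entry genes rose in 7 of 11 and fell in none (median 1.19, all genes 0.13), with Spo11 up by 3.76, Prdm9 by 3.43, Sycp3 by 2.28 and Sycp2 by 1.86. Genes of undifferentiated spermatogonia fell in 8 of 16 and rose in none, with Lhx1 down by 4.11, Etv5 by 3.49, Gfra1 by 3.38 and Eomes by 2.55. Tex101 and Rhox13 rose by 1.02 and 0.95, and Ccnd2 fell by 1.43. Rxrg fell by 3.87 and Dmrtc2, a DM-domain gene of spermatocytes, rose by 3.28, while no oocyte gene and no Id or partner gene was called.

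The clusters of PND10 to PND14 cells differed in which factors were high. Clusters were built from variable genes after the members and the genes of the lists (75 genes) were left out. The values by cluster are a description and were not tested. In 338 cells, mostly of PND14, Dmrt1 stood at 240.2 CPM, Sohlh1 at 169.7 CPM, Sohlh2 at 97.2 CPM and Esx1 at 219 CPM. In another 199 cells, also mostly of PND14, Dmrt1 stood at 23.6 CPM, Sohlh1 at 21.2 CPM and Esx1 at 19.1 CPM, but Sohlh2 at 87.1 CPM and Dmrtb1 at 150.2 CPM. Over the 3 pools of the second cluster Sohlh2 ran from 53.8 to 146.3 CPM, a wide spread around the 91.2 to 126.75 CPM of PND5 to PND7. A further cluster of 167 cells, mostly of PND14, lay between them for Sohlh1 (62.3 CPM), Dmrt1 (80.4 CPM) and Esx1 (59.96 CPM). Sohlh2 was at 76.4 CPM in it. Its Dmrtb1 stood at 272.2 CPM, against 108.7 CPM in the 338 cells and 150.2 CPM in the 199 cells.

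From PND30 to the adult, the named germ pools had spermatocyte markers at a summed 3551.8 to 3750.2 CPM and round spermatid markers at 1063.2 to 3534.4 CPM. Spermatogonia markers were at 47.4 to 71.5 CPM there, and the part of cell composition in the changes was not tested. All 7 members were called, where 66% of all genes were, 37.6% as higher and 28.5% as lower. Dmrtb1 rose and the other 6 fell. Dmrtb1 was at 649 and 619 CPM at PND30, 657 and 639 CPM at PND35 and 597 CPM in the adult. The lowest of these 5 pools was above the highest of PND10 to PND14 (224 CPM). The rise was 2.87 (SE 0.47, adjusted p = 2.18e-06). The adult replicate 1 pool with its unnamed cells, not among the 5, had Dmrtb1 at 167 CPM, inside the range of PND10 to PND14 (79.98 to 224 CPM). With the unnamed clusters added to both windows, the mean Dmrtb1 level was 106.6 CPM at PND10 to PND14 and 554 CPM from PND30. After thinning to 50000 UMIs, 85.9% of germ cells had a Dmrtb1 UMI at PND10 to PND14 and all 2105 had one from PND30.

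Sohlh1 was at 2.14 to 4.94 CPM (median 3.34), a log2 change of -5.11 (SE 0.54, adjusted p = 2.70e-10). Dmrt1 was at 2.80 to 5.49 CPM (median 3.20), a fall of 5.31 (SE 0.50, adjusted p = 1.33e-11). Sohlh2 was at 2.53 to 10.3 CPM (median 4.08), a fall of 3.56 (SE 0.56, adjusted p = 1.06e-06). None of these 5 pools reached the range of PND10 to PND14, but the adult replicate 1 pool with its unnamed cells, not among them, had Sohlh2 at 81.99 CPM, inside that range (81.7 to 116.7 CPM). With the unnamed clusters added to both windows the log2 changes were smaller and still called: -3.41 for Sohlh1 (adjusted p = 1.71e-05), -3.35 for Dmrt1 (adjusted p = 2.24e-05) and -2.14 for Sohlh2 (adjusted p = 0.00160).

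Sox3 fell by 5.71 (SE 0.60, adjusted p = 2.16e-10) to 0.0456 to 0.469 CPM. Esx1 fell by 2.53 (SE 0.72, adjusted p = 0.00243) to 7.64 to 20.7 CPM, and without replicate 2 this fall lost its call (2.73, adjusted p = 0.0755). Neurog3 had 3 UMIs in all 5 late pools against 285 UMIs in the 5 pools before, which makes its level 253-fold higher at PND10 to PND14 (95% exact counting interval 85.6 to 1232), with an adjusted p of 5.39e-05. Intervals of this kind cover counting error only, and this one rests on the 5 named pools. With the unnamed clusters added, the mean Neurog3 level was 1.33 CPM at PND10 to PND14 and 0.0728 CPM from PND30, a far smaller ratio (log2 change -3.97, adjusted p = 0.00511). With them Sox3 changed by -3.53 (adjusted p = 3.84e-05) and Esx1 by -1.57 (adjusted p = 0.0407).

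The targets fell in 10 of 12 and rose in none (median -4.59, all genes 0.39), led by Ccnd2 (log2 change -5.79), Sall4 (-5.66), Crabp1 (-5.50) and Stra8 (-5.44). Oocyte genes fell in 4 of 6, the partners and inhibitors fell in 5 of 7 and rose in 1, retinoic acid receptors fell in 4 of 6, genes of undifferentiated spermatogonia fell in 10 of 16 and rose in 1, and the relatives fell in 3 of 11 and rose in 2. Meiotic entry genes rose in 2 of 11 and fell in 3, among them Mei4 (log2 change -5.87) and Prdm9 (-4.06).

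Sorting by DNA content at PND30 gave a view that does not use the counts. The 4N gate holds cells with replicated DNA, spermatocytes among them, and the 1N gate haploid spermatids. Dmrtb1 was at 656 CPM (1N), 614 CPM (2N) and 676 CPM (4N) in replicate 1, and at 736, 525 and 679 CPM in replicate 2. Dmrtb1 was thus high in both the 1N and the 4N gate, and the log2 difference of 4N over 1N was -0.23 (SE 0.23, adjusted p = 0.421). Of 10 meiotic entry genes tested between these gates, 5 were higher in 4N and 2 were lower, Dmc1 (-2.63) and Rec8 (-2.37). The purity of the gates was not tested.

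Sohlh1 was at 2.56, 1.64 and 2.35 CPM in the 1N, 2N and 4N gates of replicate 1 and at 10.9, 3.55 and 1.59 CPM in those of replicate 2. Esx1 was at 23.7, 24.4 and 15.4 CPM and at 33.2, 20.4 and 7.04 CPM. Both were lower in 4N than in 1N cells of each replicate, although the Sohlh1 values of replicate 1 were close. Dmrt1 was at 3.48 CPM (1N) and 1.94 CPM (4N) in replicate 1 and at 6.31 and 1.97 CPM in replicate 2.

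With the replicate as a block, Esx1 (log2 change -1.63, SE 0.46, adjusted p = 0.00197), Sohlh1 (-1.60, SE 0.64, adjusted p = 0.0344) and Dmrt1 (-1.45, SE 0.62, adjusted p = 0.0486) were lower in 4N cells. These were 3 of 5 members tested, where 40.8% of all 20269 genes tested were called, 16.9% as higher and 23.9% as lower. The Sohlh1 and Dmrt1 calls were lost without the block (adjusted p = 0.0700 and 0.0814), with median-ratio size factors and without the filter on low counts. Sohlh2 differed by -0.98 (SE 0.70) and was not called, and Neurog3 and Sox3 had too few UMIs to be tested. In a cluster of 237 late cells Sohlh1 stood at 21.03 CPM, against 0.534 to 1.25 CPM in the other 4 late germ clusters.

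The sort on reporters before birth likewise sets germ cells beside other gonadal cells without using the counts. The 16 pools of E11.5 to E18.5 held 66 to 96 reporter-positive and 22 to 48 Negative cells each. All cells of a gate were used, whatever their cluster. The gates thus include E17.5 replicate 1, which is left out of the main germ cell values, and the unnamed cells of other pools, such as E16.5 replicate 2. With the pool as a block, 6 of 6 members tested were higher in the reporter-positive gate, where 56.5% of all 23322 genes tested were called, 37.1% as higher and 19.4% as lower; the median gene shifted by 0.68. Neurog3 had too few UMIs to be tested.

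Sohlh2 was higher in reporter-positive cells in 15 of 16 pools (log2 difference 4.30, SE 0.49, adjusted p = 3.31e-07) and Sox3 in 16 of 16 (4.89, SE 0.76, adjusted p = 1.70e-05). Dmrtb1 was higher in 14 of 16 (3.15, SE 0.80, adjusted p = 0.00227), Esx1 in 12 of 16 (2.65, SE 0.64, adjusted p = 0.00165) and Sohlh1 in 11 of 16 (2.69, SE 0.86, adjusted p = 0.0126). Dmrt1 had the smallest difference (1.37, SE 0.47, adjusted p = 0.0178), in 12 of 16 pools. Leaving out replicate 1 or 2 ended the calls of Dmrt1 (adjusted p = 0.0659 and 0.0797), leaving out replicate 1 that of Sohlh1 (adjusted p = 0.118), and leaving out replicate 2 that of Dmrtb1 (adjusted p = 0.0853).

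**Figure D4:**
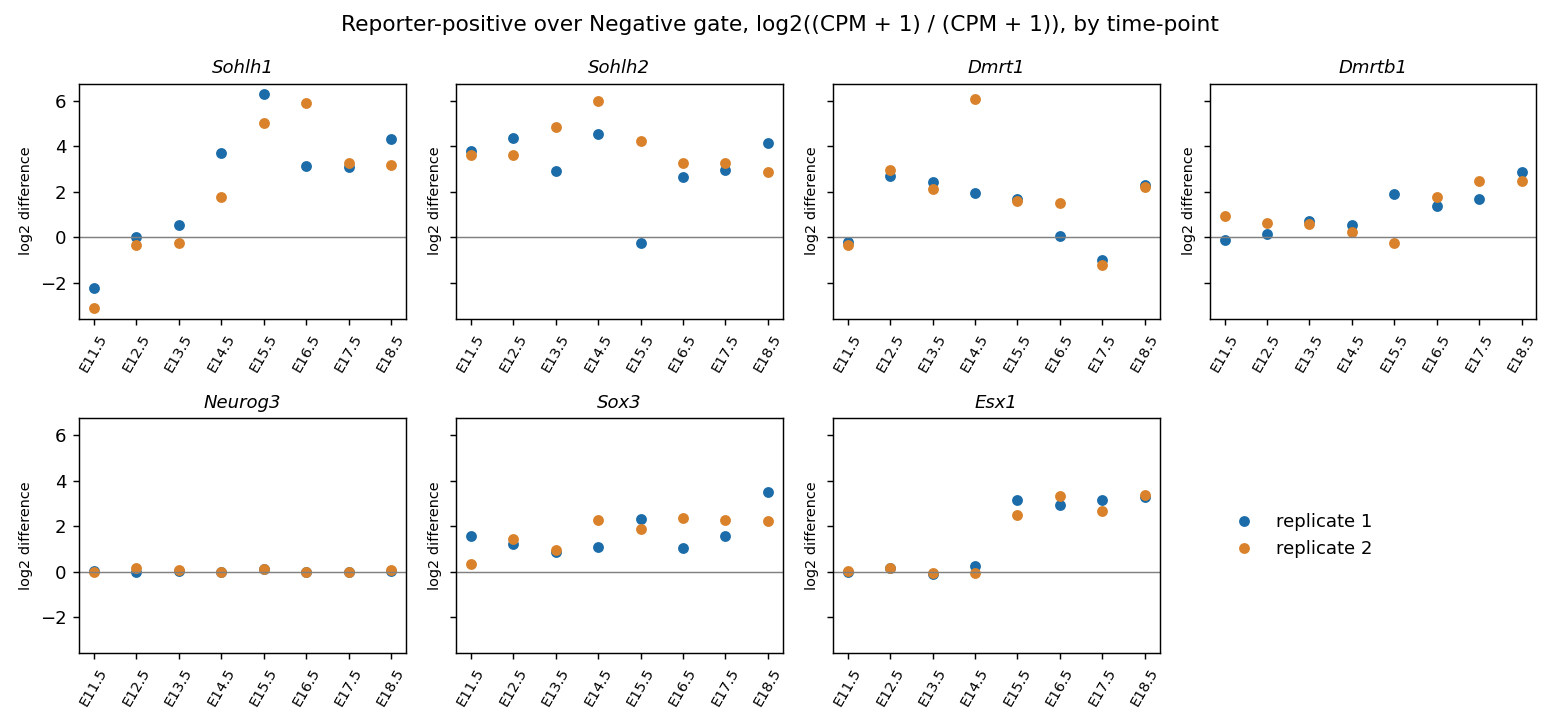
Log2 ratio of reporter-positive over Negative cells, from (CPM + 1), for each gene and pool of E11.5 to E18.5; blue is replicate 1 and orange replicate 2, and 0 means equal levels. Sohlh1 is below 0 in both E11.5 pools and above 0 from E14.5, and Dmrt1 is below 0 in both pools of E11.5 and of E17.5. All cells of a gate are used, whatever their cluster, those of E17.5 replicate 1 included.

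Dmrt1 was the member shared with somatic cells. In Sertoli-like cells it lay at 43.6 to 216 CPM (median 105.6) in 21 pools, and in interstitial-like cells at 0 to 91.7 CPM (median 3.79) in 23 pools. Sertoli-like cells were higher than interstitial-like cells in 13 of 13 pools that held both. Germ cells were higher than Sertoli-like cells in 13 of 19 pools, with a median ratio of 1.32.

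The order was turned at E11.5 and E17.5, when Dmrt1 was at 53.4 and 43.9 CPM (E11.5) and 82.3 and 70.95 CPM (E17.5) in the Negative gate and at 45.98 and 34.2 CPM and 41.04 and 29.8 CPM in the reporter-positive gate. Sertoli markers were present in germ pools at a summed level of 25.4 to 47.6 CPM at E11.5 to E13.5, up to 598 CPM at PND2 to PND4 and 22.3 to 44.2 CPM from PND30. Their part in the postnatal Dmrt1 level was not tested.

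The other members were higher in germ cells than in either somatic class in most pools. Sohlh2 and Sox3 were higher in germ cells than in Sertoli-like cells in 19 of 19 pools and than in interstitial-like cells in 21 of 21, with median ratios of 13.02 and 16.4 for Sohlh2 and 5.31 and 5.47 for Sox3. Sohlh1 was higher in 16 of 19 and 18 of 21 pools (median ratios 10.1 and 10.5). Dmrtb1 was higher in 18 of 19 and 20 of 21 pools, Esx1 in 17 of 19 and 19 of 21, and Neurog3 in 14 of 19 and 14 of 21. Sertoli-like pools reached 72.6 CPM for Esx1, 44.99 CPM for Dmrtb1 and 34.2 CPM for Sox3. Somatic cells around and after birth held some Sohlh1 UMIs: interstitial-like cells had one in 76.7% of thinned cells at E17.5 to PND1 and in 47.4% at PND5 to PND7, against 99.9% and 98.1% of germ cells.

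**Figure D5:**
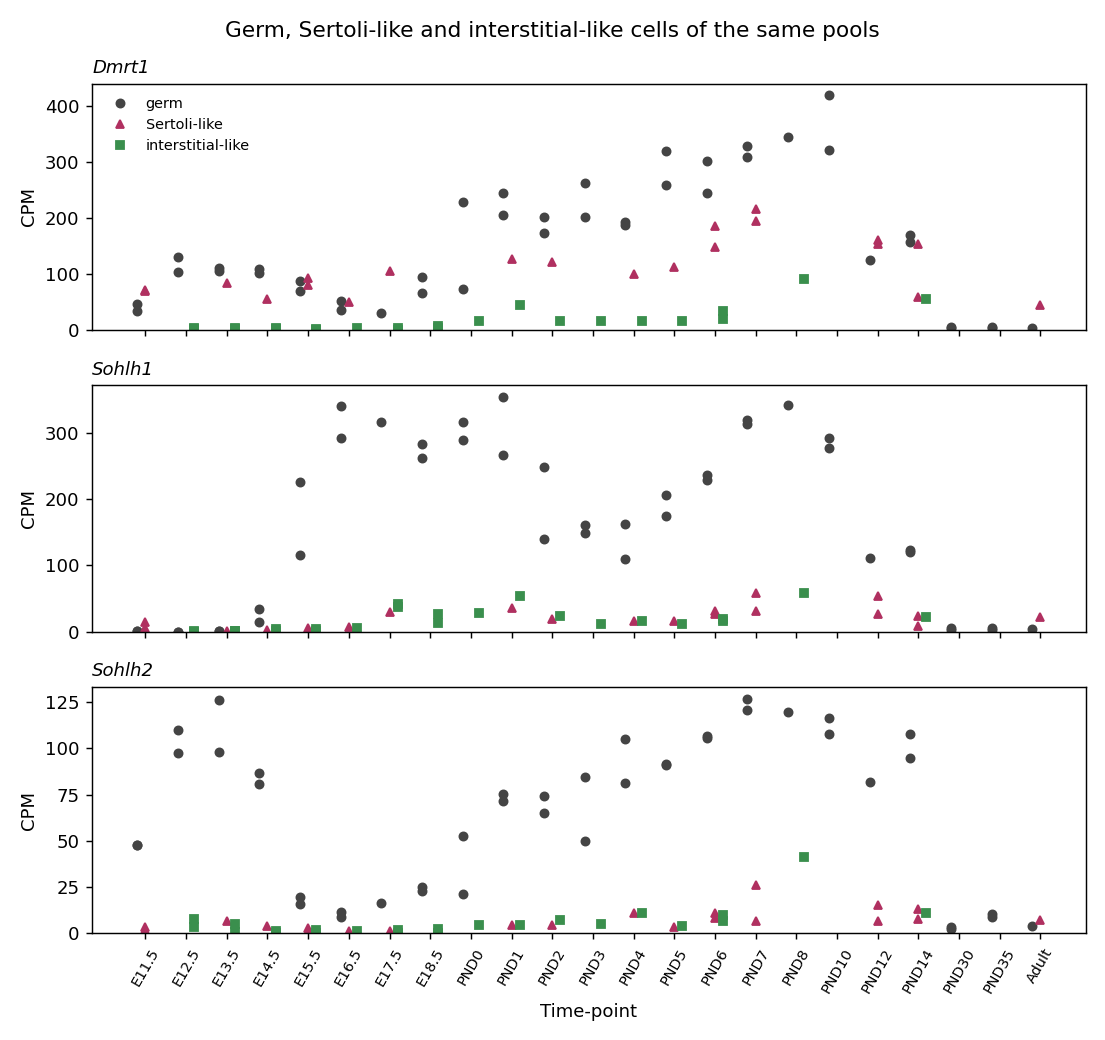
Level (CPM) of Dmrt1, Sohlh1 and Sohlh2 in germ cells (circles), Sertoli-like cells (triangles) and interstitial-like cells (squares) of each pool with at least 10 cells of the class. For Dmrt1 the Sertoli-like values (43.6 to 216 CPM) lie among the germ values, while for Sohlh1 and Sohlh2 both somatic classes stay at or below 58.5 CPM.

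At E11.5 it was the somatic side that held Sohlh1. The Negative gate had 4.09 and 9.08 CPM and the reporter-positive gate 0.0808 and 0.162 CPM. In Sertoli-like cells of these pools Sohlh1 was at 5.65 CPM (24 UMIs, in 4 of 20 cells) and 14.48 CPM (36 UMIs, in 4 of 14 cells), with up to 14 and 21 UMIs in a cell. Interstitial-like cells of the same pools had no Sohlh1 UMI in 7 and 9 cells, which at a median of 98821 and 136452 UMIs per cell is a small sample.

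The number of members detected per germ cell followed the course of the single genes. After thinning to 50000 UMIs, the median cell held UMIs of 2 of the 7 genes at E11.5 to E13.5 and at E14.5 to E16.5, of 4 from E17.5 to PND7, of 5 at PND10 to PND14 and of 1 from PND30.

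Across the 41 pools, log2(CPM + 1) of Sohlh2 and Dmrt1 was most alike among the 21 pairs of members (r = 0.879), and Sohlh1 and Sohlh2 had r = 0.188. These correlations describe pools that share an age course, so they carry no test. Among 13558 genes with a mean of at least 5 CPM, the course of Sohlh1 was most like those of Celf2 (r = 0.976), Cnp (0.9747) and Prdm16 (0.973), and that of Sohlh2 like Tmed2 (0.961), Lrrc40 (0.957) and Idh3a (0.955). Dmrt1 was nearest to Hp1bp3 (0.962), Armcx5 (0.956) and Telo2 (0.955), and Dmrtb1 to Elovl2 (0.956), Zfand4 (0.952) and 1700066M21Rik (0.951). Sox3 was nearest to Slc25a53 (0.891), Eif5a2 (0.883) and Lonrf3 (0.881), Esx1 to Zfp711 (0.929), Card19 (0.909) and Pex11a (0.903), and Neurog3, with few UMIs, to Ccdc32 (0.721), 2610028E06Rik (0.712) and Gm11032 (0.708).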

How the data were processed

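Per the labels and the study's methods, the authors used UMI-tools, seqtk, STAR and featureCounts of Subread on the mm10 genome (CASAVA 1.8 is named for base calling) and deposited UMI counts per gene and cell, not normalized and not filtered. GEO's labels name 147 libraries as mouse germ cells; time-point, replicate, gate and genotype of each cell were read from the deposited cell table and cell names, and 106 libraries were used. Cells with at most 2000 genes or outside 10000 to 1000000 UMIs were removed here; the labels do not say whether doublets were, and no doublet caller was run.

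Cells were clustered with scanpy 1.11.5 (1000 variable genes, 30 components) and named from marker genes. UMI counts were summed per time-point and replicate, with at least 10 cells, and tested with edgeR 4.0.16 (TMM, filterByExpr, quasi-likelihood, two-sided); limma 3.58.1 and DESeq2 gave alternatives. The windows rest on age alone. The scripts were tested on simulated data. Precision comes from the pool totals, 6792440 to 197193011 UMIs.

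The members and gene lists were chosen with earlier results of these data known. Named from each list are at most 4 called genes of largest change per comparison; 1 of the 12 meiotic entry genes was not measured. Replicates were not paired. RefSeq gave no upstream stretch for Dmrt1 and Sox3. Columns of other series numbered 0.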

Additional observations from a re-analysis of the deposited data

Results flagged for a closer look

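Of 49 groups of pools in 1 window, 3 held a pool far from the others; chance alone puts about 1 group in 20 there. Sohlh1 at E11.5 to E13.5 was highest in E13.5 replicate 1, at 0.674 CPM (19 UMIs), with the next pool at 0.227 CPM. The highest count in 1 germ cell of this window was 18 UMIs, so 1 cell held most of the UMIs of that pool. Dmrt1 at PND2 to PND4 was highest in PND3 replicate 1, at 262 CPM, with the next at 202 CPM. Neurog3 in the same window was highest in the same pool, at 0.548 CPM (26 UMIs), with the next at 0.0617 CPM. Here too 1 cell held most of the UMIs, as the highest count in 1 germ cell of the window was 17.

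Between the reporter gates, both replicates of some time-points went against both replicates of others; these differences between time-points were not tested. The reporter-positive gate minus the Negative gate was -4.01 and -8.91 CPM for Sohlh1 at E11.5 (mean -6.46 CPM), whereas it was above 0 in both replicates of each time-point from E14.5 to E18.5. For Dmrt1 it was -7.39 and -9.62 CPM at E11.5 (mean -8.51 CPM) and -41.2 CPM in both replicates at E17.5 (mean -41.2 CPM), against values above 0 in both replicates of the other 6 time-points. For Esx1 it was -0.0642 and -0.0225 CPM at E13.5 (mean -0.0433 CPM), where the gene was near its counting limit. The gates of E17.5 replicate 1 hold cells left out of the main germ cell values.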

How the results depend on the processing

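Counts of members called in a comparison were recomputed under each alternative (DESeq2, median-ratio size factors, no filter on low counts, 20 cells per pool, each replicate left out, the replicate block, coarser clusters at resolution 0.3, scaled cells with limma, and, chosen after seeing the data, the unnamed clusters added); a cause was tested for none of the changes. From E17.5 to PND1 the count of 3 was 1 to 2 without 1 replicate. At PND2 to PND4 the count of 2 was 1 with no filter, 5 with scaled cells and limma, 1 with the unnamed clusters added and 0 to 2 without 1 replicate. At PND5 to PND7 the count of 2 was 1 with median-ratio size factors, with no filter, with 20 cells, at resolution 0.3 and with the unnamed clusters added, and 0 to 0 without 1 replicate. At PND10 to PND14 it was 0 to 2 without 1 replicate. For 4N against 1N the count of 3 was 1 with median-ratio size factors, with no filter and with no replicate block; leaving out a replicate was not run there because no residual degrees of freedom remain. Elsewhere, leaving out a replicate gave 2 to 3 of 3 at E14.5 to E16.5, 6 to 7 of 7 from PND30 and 4 to 4 of 6 between gates. The counts for E14.5 to E16.5, PND30 to adult and the reporter gates kept within 1.5 times under these alternatives.

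Differences that turned sign were all uncalled. With replicate 1 and then replicate 2 left out, the log2 differences were -1.15 and 0.038 for Neurog3 at E14.5 to E16.5, -0.74 and 0.21 for Sohlh2 and -0.069 and 1.07 for Dmrt1 at E17.5 to PND1, -0.15 and 1.68 for Neurog3 at PND2 to PND4, and -0.14 and 0.21 for Sohlh2, -0.41 and 0.019 for Dmrt1 and -0.062 and 0.038 for Sox3 at PND10 to PND14. With scaled cells Sohlh2 at E17.5 to PND1 was 0.37 and Neurog3 at PND2 to PND4 -0.021. At resolution 0.3, Sohlh2 and Sox3 at PND10 to PND14 were 0.016 and 0.021, and with PND8 added Esx1 at PND5 to PND7 was 0.050.

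Same-numbered replicates of different time-points were not treated as paired. Deviations of same-numbered pools correlated at -0.268 to 0.571 (median 0.00417) over 171 pairs of time-points, with 24 pairs over 0.1. Whether some time-points share a batch was not tested. With the replicate block the counts were 3, 3, 2, 2, 2 and 7 over the 6 windows, the same as without it, and without the block between gates 4 of 6. With scaled cells and limma, higher genes made 82.1%, 22.9% and 55.2% of calls at E17.5 to PND1, PND2 to PND4 and PND10 to PND14, against 41.5%, 47.7% and 71.9%. Over all genes, calls at PND5 to PND7 went from 973 to 2130 with DESeq2, 410 with 20 cells, 1487 with PND8 added and 0 to 5 without 1 replicate; the other ranges without 1 replicate were 4326 to 7462 of 12894, 39 to 4665 of 7350, 2 to 5157 of 10016, 24 to 3911 of 5759, 10912 to 12912 of 16459 and, between gates, 7249 to 7275 of 13173. Limma gave 11469 at E17.5 to PND1, and the unnamed clusters 578 and 3811 at PND5 to PND7 and PND10 to PND14. Depth limits Neurog3 most, with 616 UMIs in all germ cells.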
